A study of Mus musculus with 6 samples.

Results

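The 10 genes described here are Fos, Fosb, Jun, Junb, Jund, Egr1, Atf3, Ier2, Ier3 and Nr4a1. They form a set named immediate early AP-1 and stress genes, and were taken by symbol from the 31053 genes of the series. Each symbol occurred once. They were followed in inguinal white adipose tissue (iWAT) of C57BL/6 mice, young (9 weeks) or aged (57 weeks), in 6 single-cell RNA libraries, 1 for each age and housing. All mice were first acclimated to thermoneutrality. The TN mice then stayed at 30 °C, the 3D mice were moved to 6 °C for the last 3 days, and the 14D mice spent 14 days at 6 °C. The study used male mice from the National Institute on Aging or from Jackson Laboratories, and how many mice stand behind a library is not given in the sources used here. Its methods say that animals were pooled only where stated, and mention no pooling of mice for the single-cell libraries.

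Immediate early genes are switched on within minutes of a stimulus without any new protein being made. Growth factors, stretch, wounding and heat act through MAP kinases on factors already bound at their promoters, and the short-lived messages and proteins disappear again soon after. Fos and Jun family proteins pair to form the transcription factor AP-1. Enzymatic digestion of a tissue at body temperature is itself a known inducer of these genes, and all 6 libraries came from iWAT digested with collagenase and dispase.

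After digestion the study sorted live CD45-depleted cells, and 57326 of 68103 barcodes passed the filters on cells, 8030 to 10880 per library. Each UMI stands for 1 captured RNA molecule. The median UMIs per kept cell were 9904, 8312 and 7652 in the young TN, 3D and 14D libraries and 6726, 6912 and 2742 in the aged ones. Every young library was deeper than every aged one, so age and depth go together here. The aged 14D library stood furthest apart by its depth. Any 2 libraries shared 30 to 44 cell barcodes. By marker genes, 47214 cells were gated as Dpp4+ fibroblasts, Icam1+ preadipocytes or Cd142+ fibroblasts (the 3 fibroblastic progenitor classes, ASPCs), endothelial cells or smooth muscle cells and pericytes (SMC/pericytes). Values are UMIs summed over the cells of a class in a library, given as normalised CPM (counts scaled to the total of the class in that library and by TMM factors). Each age has 3 libraries that differ in temperature, and each temperature 2 libraries that differ in age. The spread behind each test is that left after both effects are taken out, moderated by the spread of the other genes. It also holds any age effect that differs between temperatures. That spread may be technical as well as biological. A sum cannot tell fewer cells that carry a message from less message per cell.

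The genes lie apart in the genome (GRCm38, GENCODE annotation), each a protein-coding gene whose UMIs come from the 3′ end of its transcripts. Nr4a1, an orphan nuclear receptor, spans chr15:101254269-101274795. Ier3, a short regulator of cell survival, is at chr17:35821684-35822923. Junb at chr8:84974484-84978718 and Ier2 at chr8:84661331-84662852 share chromosome 8 with Jund at chr8:70698949-70700616, and the 3 have a single exon each in their first listed transcript. The other members are Fos at chr12:85473890-85477273, Fosb at chr7:19302696-19310051, Jun at chr4:95049034-95052222 and Atf3 at chr1:191170296-191218039, and Egr1.

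Upstream sequence was at hand for 8 of the 10 genes (RefSeq, GRCm38.p6), and 4 are shown. The results below turn on Nr4a1, Ier3 and Junb, and Fos stands for the genes not called with age in the main fit. Each sequence is the stretch just before the RefSeq transcript start, 5′ to 3′, shortened where the annotation places an exon. Capitals mark the ETS core CCGGAA in Nr4a1 and the TATA box TATAAA in Fos.
Nr4a1 (chr15:101266696-101266845, plus strand): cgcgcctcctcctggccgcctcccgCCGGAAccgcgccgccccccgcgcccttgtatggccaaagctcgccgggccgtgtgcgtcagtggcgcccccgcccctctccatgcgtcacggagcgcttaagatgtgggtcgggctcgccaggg
Ier3 (chr17:35821563-35821683, plus strand): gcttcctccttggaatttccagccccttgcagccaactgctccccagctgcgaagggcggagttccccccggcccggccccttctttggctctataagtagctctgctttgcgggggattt
Junb (chr8:84978749-84978898, minus strand): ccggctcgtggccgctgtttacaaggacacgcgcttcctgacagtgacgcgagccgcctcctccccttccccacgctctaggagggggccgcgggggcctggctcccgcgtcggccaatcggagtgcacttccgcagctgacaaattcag
Fos (chr12:85473740-85473889, plus strand): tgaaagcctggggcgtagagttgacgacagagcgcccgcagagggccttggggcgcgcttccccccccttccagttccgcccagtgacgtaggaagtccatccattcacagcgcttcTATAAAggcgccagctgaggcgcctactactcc
6 motifs were searched on both strands of the 300 bases from 250 before to 50 after the start. The full cyclic AMP response element TGACGTCA, the AP-1 site TGAGTCA, the NR4A element AAAGGTCA and the CArG box were found in none of the 8 windows. They occur in 1.79%, 5.2%, 1.51% and 1.63% of all 32851 windows. The ETS core occurs in 14.9% of windows and TATAAA, which was also found at the start of Junb, in 13.6%. The Jund window lies wholly upstream of the gene start given above, so it does not adjoin that start. Sites further than 250 bases before a start were outside the windows. A match or its lack is a description of these letters only.

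Fos, Fosb, Jun, Junb, Jund and Egr1 were detected in most cells of every class. At an equal depth of 2000 UMIs per cell, Fos was found in 88.5 to 99% of cells over the 30 combinations of library and class, Junb in 93 to 99.4% and Egr1 in 79.8 to 99.7%. The rarer messages were Atf3 (48.3 to 76.1%), Ier2 (42.1 to 86.7%), Ier3 (26.4 to 64.3%) and Nr4a1 (11.9 to 71.3%). The 10 genes together gave a median of 35 to 71 UMIs per 2000. In Dpp4+ fibroblasts of the young TN library the 10th percentile of cells still held 23 and the 90th 62. No class among those gated is known to lack these genes, so the background from free RNA could not be measured.

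**Figure D1:**
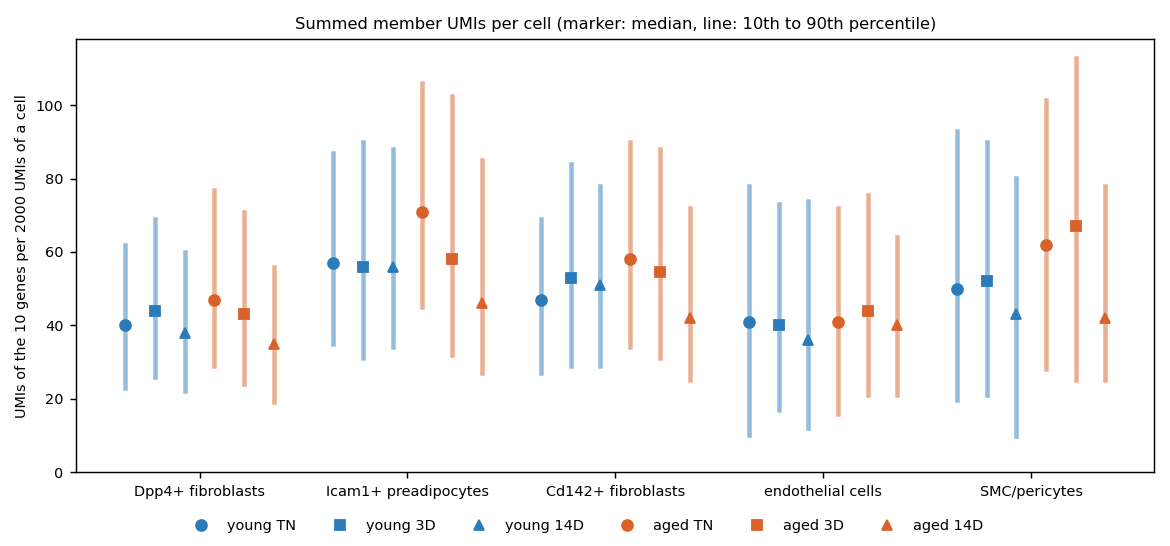
UMIs of the 10 genes summed per cell after thinning each cell to 2000 UMIs (y axis), for each class (x axis) and library; markers give the median and lines the 10th to 90th percentile of cells. The aged 14D library has the lowest median of the 6 in each of the 3 fibroblast classes, at 35, 46 and 42 UMIs, and the aged TN library the highest, at 47, 71 and 58.

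Within a library, cells rich in one of these messages were often rich in another. Over cells of 1 class and library thinned to the same depth, the Pearson correlation of log counts of Fos and Jun had a median over libraries of 0.398 to 0.616 in the 5 classes. For Fos and Egr1 it was 0.37 to 0.491, and for Jun and Egr1 0.308 to 0.465. These 3 pairs had the highest mean over the 5 classes, while in single classes another pair could be higher, such as Junb and Egr1 in SMC/pericytes (0.514). The values are descriptions, since cells of a library share their digestion and their preparation.

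Several members differed widely between cell classes. Nr4a1 averaged 788 ± 166 CPM without TMM factors in SMC/pericytes, 452 ± 99.8 in Dpp4+ fibroblasts, 347 ± 77.1 in the Cd142+ class, 313 ± 33.3 in endothelial cells and 109.9 ± 25.7 in Icam1+ preadipocytes (SD over 6 libraries). All 6 Icam1+ values, up to 138, lay below every value of the other classes, while neighbours elsewhere in this order overlapped. Ier2, a small nuclear regulator, was highest in endothelial cells at 1217 ± 157 and lowest in Dpp4+ fibroblasts at 411 ± 82. Ier3 was also highest in endothelial cells (835 ± 79.6) and lowest in Icam1+ preadipocytes (286 ± 59.2). Fosb ran the other way, with 5347 ± 635 in Icam1+ preadipocytes and 1588 ± 215 in endothelial cells, and the 6 libraries of these classes did not overlap. Jun was lowest in Dpp4+ fibroblasts, at 2032 ± 344 against 5039 ± 1074 in Icam1+ preadipocytes.

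In the classes too small for a test the libraries were summed. In CPM without TMM factors, Fos reached 9102 (exact Poisson 95% interval 8820 to 9391) in 129 Schwann cells. It reached 1022 (977 to 1070) in 285 immune cells left after the CD45 depletion. The intervals cover counting error only.

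**Figure D2:**
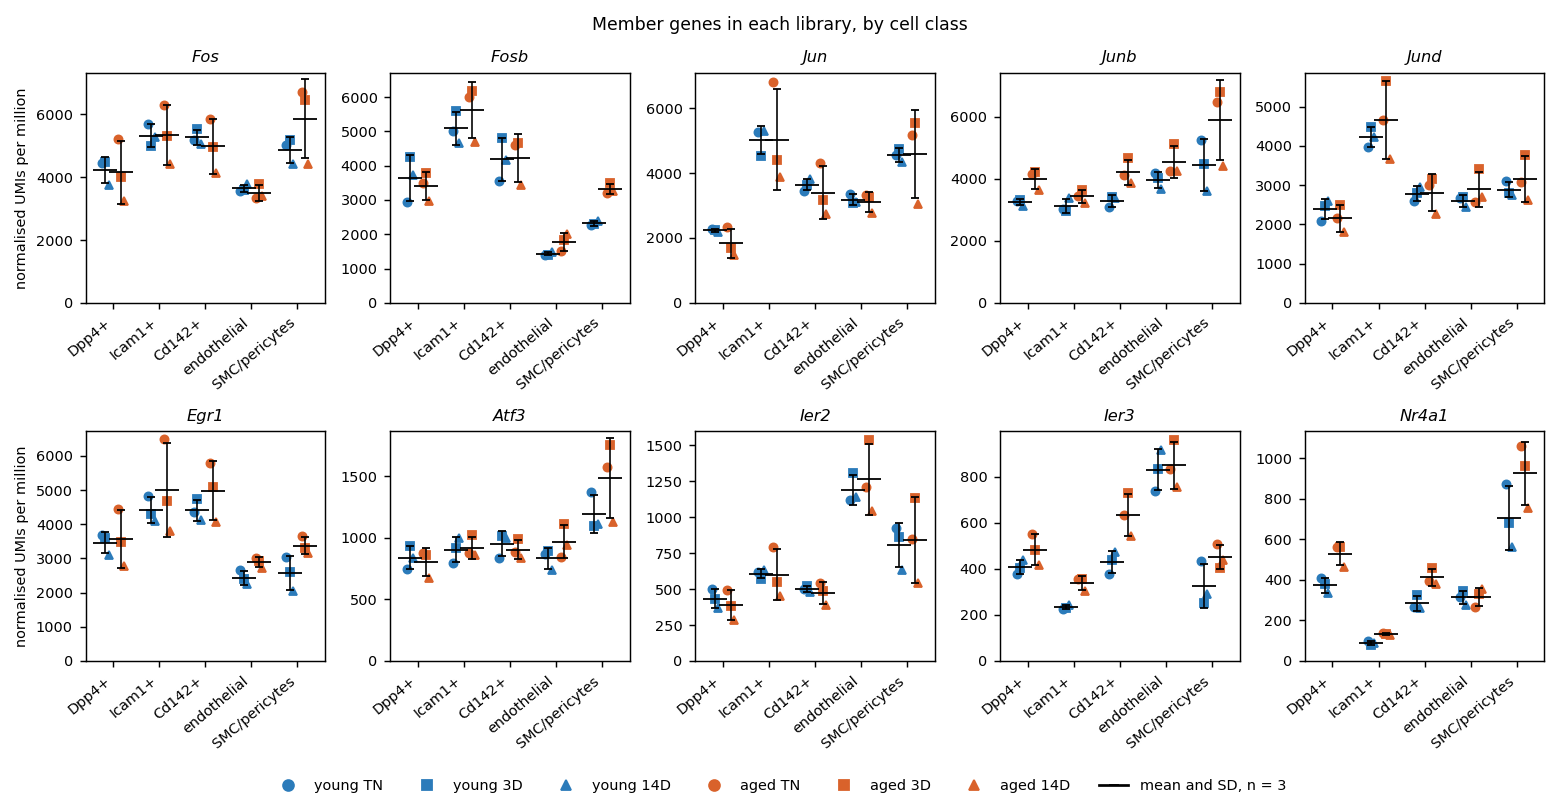
Normalised CPM (y axes, UMIs scaled to the class total, from 0) of each of the 10 genes in every library, by cell class (x axes). Colour gives the age, marker shape the temperature, and black bars the mean and SD of the 3 libraries of an age. Nr4a1 is higher in all 3 aged than in all 3 young libraries in each fibroblast class, and Icam1+ preadipocytes hold its lowest values.

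Does age change these genes at a matched temperature? Nr4a1 rose with age in all 3 fibroblast classes, Ier3 in Icam1+ preadipocytes and Cd142+ fibroblasts, and Junb in Dpp4+ fibroblasts. No member fell with age, and none of Fos, Fosb, Jun, Jund, Egr1, Atf3 and Ier2 passed the test in any class. That makes 2 of 10 members called in Dpp4+ fibroblasts, beside 2216 of 13226 (16.8%) of all genes tested, 2 of 10 in Icam1+ preadipocytes beside 1287 of 13104 (9.82%), and 2 of 10 in Cd142+ fibroblasts beside 1107 of 11523 (9.61%). With only 10 members, a count of 2 is near the background in each of these 3 classes. In endothelial cells and SMC/pericytes no member was called with edgeR, where 45 of 10401 (0.433%) and 2 of 7621 (0.0262%) of all genes were. At an unadjusted p under 0.05 there were 3 and 5 members, and DESeq2 called 0 in both. The share of all genes at that unadjusted p is not given, so these counts have no background beside them.

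Nr4a1 in Dpp4+ fibroblasts measured 408, 378 and 335 in the young TN, 3D and 14D libraries and 562, 561 and 464 in the aged TN, 3D and 14D libraries. All aged libraries were above all young ones. The log2 fold change was 0.50 (SE 0.058, adjusted p = 0.000248), with aged minus young differences of 0.46 at TN, 0.57 at 3D and 0.47 at 14D. In Icam1+ preadipocytes, where the gene is scarce, it measured 96.9, 77 and 86.7 (young) and 136, 135 and 129.6 (aged) in the order TN, 3D, 14D. The ages again did not overlap, and the change was 0.62 (SE 0.076, adjusted p = 0.00428). In Cd142+ fibroblasts the values were 266, 326 and 260.4 (young) and 394, 460.2 and 379.5 (aged), with a change of 0.54 (SE 0.080, adjusted p = 0.00197). When 1 library is left out, its partner of the same temperature is fitted by its own temperature term. Leaving out either library therefore takes that pair out of the age comparison, so the 2 leave-outs are not separate checks. Without the 3D pair the Cd142+ call was lost, and over all leave-outs the change ran over 0.52 to 0.56. The calls in the Dpp4+ and Icam1+ classes held under all 14 settings run, which count both leave-outs of each pair.

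The share of Dpp4+ fibroblasts with a UMI of Nr4a1 was also higher in aged libraries. At 2000 UMIs per cell, Nr4a1 was found in 44.9% (43.2 to 46.6%), 45% (43.4 to 46.6%) and 39.6% (38.2 to 41%) of young and 54.9% (52.8 to 57%), 54.5% (52.8 to 56.2%) and 51.7% (49.7 to 53.7%) of aged Dpp4+ fibroblasts (TN, 3D, 14D, with exact Clopper-Pearson 95% intervals). Every aged share lay above every young one. Without thinning the shares were 76.7, 75.3 and 69.6% in young and 80.9, 81.3 and 73.5% in aged cells, and the ages then overlapped. At this depth the share follows the mean count, so more cells with the message and more message per cell cannot be told apart from it. Thinning kept 2443 of 2933 cells of the aged 14D library, 2183 of 2206 of the aged TN library and all cells of the other 4.

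Outside the fibroblasts Nr4a1 gave no call. In endothelial cells it measured 317, 345 and 278 (young) and 266, 328 and 354 (aged), with a log2 change of 0.0052 (SE 0.12, adjusted p = 0.992), and the ages overlapped. In SMC/pericytes the change was 0.40 (SE 0.15, adjusted p = 0.581). The test of whether the age effect differs among the classes gave an adjusted p of 0.444, so a difference between fibroblasts and endothelial cells is not shown. That test called 163 of 13599 genes (1.2%) and no member. The smallest adjusted p of a member was that of Fosb, 0.303, and 1 member had an unadjusted p under 0.05 (share of all genes not given).

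Ier3 in Icam1+ preadipocytes measured 225, 232 and 244 (young) and 358, 355 and 303 (aged). The ages did not overlap, and the log2 fold change was 0.53 (SE 0.084, adjusted p = 0.0107). In Cd142+ fibroblasts it measured 379, 440.3 and 472 (young) and 632, 728 and 542 (aged), with a change of 0.56 (SE 0.11, adjusted p = 0.0102). Aged minus young differences there were 0.74 at TN, 0.73 at 3D and 0.20 at 14D, smallest in the pair that holds the shallow library. In Dpp4+ fibroblasts the ages overlapped, at 378, 402 and 438 (young) and 553, 482 and 416 (aged), and the change was 0.25 (SE 0.10, adjusted p = 0.12). Both calls were lost without the 3D pair, whichever of its libraries was left out. Over all leave-outs the change ran over 0.45 to 0.64 in Icam1+ and 0.46 to 0.73 in Cd142+ cells. With temperature left out of the fit the Cd142+ call was also lost (adjusted p = 0.0518).

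Junb, an AP-1 subunit that partners Fos proteins, measured 3296, 3311 and 3131 (young) and 4139, 4227 and 3634 (aged) in Dpp4+ fibroblasts. The ages did not overlap, and the log2 fold change was 0.30 (SE 0.071, adjusted p = 0.0161). In Cd142+ fibroblasts the ages did not overlap either, at 3070, 3410 and 3388 (young) and 4107, 4654 and 3855 (aged), and the change of 0.35 (SE 0.10, adjusted p = 0.0522) missed the threshold. The Dpp4+ call was lost with temperature left out of the fit (adjusted p = 0.142). It was also lost without the TN pair and without the 3D pair, whichever library of the pair was left out. Over all leave-outs the Dpp4+ change ran over 0.28 to 0.34.

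The best known members did not share this. Fos, a core AP-1 subunit, measured 4458, 4475 and 3745 (young) and 5228, 4022 and 3234 (aged) in Dpp4+ fibroblasts with an age change of -0.045 (SE 0.093, adjusted p = 0.793). The aged libraries both topped and ended the range. Egr1, a zinc finger factor of the same stimuli, gave 0.022 (SE 0.089, adjusted p = 0.903) in these cells, and Jun, the main partner of Fos, -0.31 (SE 0.10, adjusted p = 0.0662). Jun passed, as lower in aged cells, with cells thinned to 2000 UMIs (adjusted p = 0.0316) and without the filter on low counts (8.13e-05). It also passed without the TN pair, whichever library of the pair was left out. Over all leave-outs its change ran over -0.49 to -0.18. In endothelial cells Fosb was higher in all aged than in all young libraries, at 1400, 1401 and 1479 (young) and 1498, 1823 and 2006 (aged), without passing the test, at a log2 change of 0.31 (SE 0.092, adjusted p = 0.212). Over the 10 members the median log2 change with age was -0.055, 0.13 and 0.0068 in the Dpp4+, Icam1+ and Cd142+ classes, 0.11 in endothelial cells and 0.35 in SMC/pericytes, where the medians of all genes tested lay between -0.0014 and 0.012. Groups by age did not overlap for 2, 2, 3, 3 and 2 of 10 members in these classes, each time with the aged libraries higher, beside 24.1, 21.9, 22.8, 15 and 12.4% of all genes in either direction. The SMC/pericytes kept depended on the cell filter. The young TN library held 104 of them, and 465 with fixed cell limits, while the aged 14D library held 550 and 299. With fixed limits the age changes of Jund, Atf3 and Ier2 turned negative in this class.

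**Figure D3:**
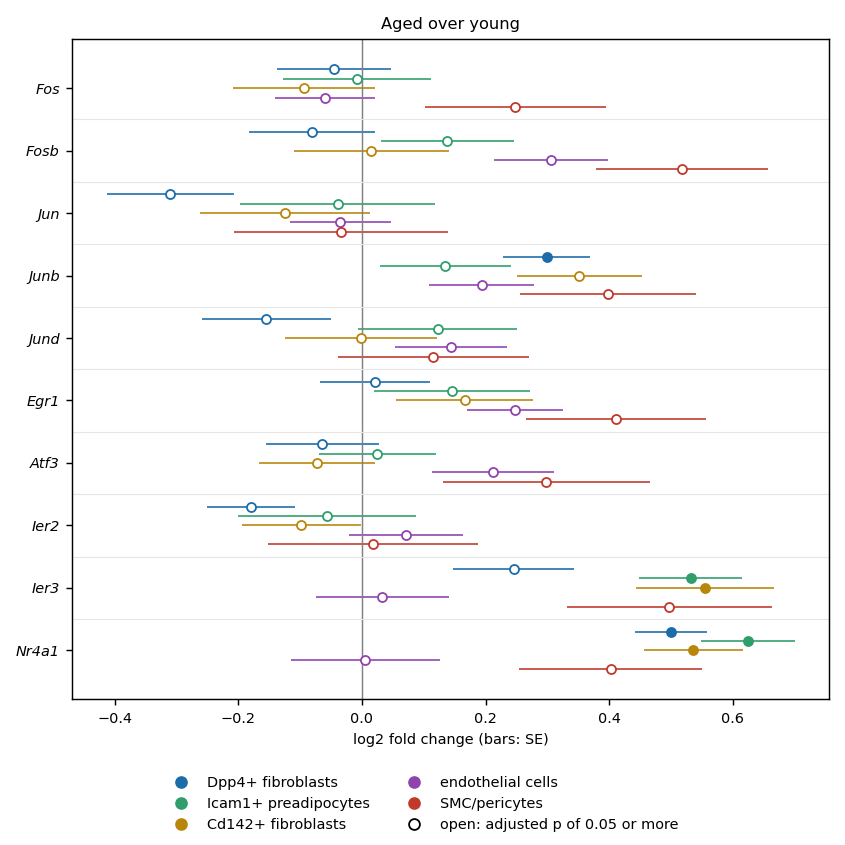
Log2 fold change of aged over young libraries (x axis) with its SE for each gene (y axis) and cell class (colour) in the additive fit of age and temperature. Filled points pass an adjusted p of 0.05: Nr4a1 in 3 classes, Ier3 in 2 and Junb in 1, all to the right of 0.

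Does cold change these genes at a matched age? The 3D and the 14D values share the TN libraries. Ier2 fell in Dpp4+ fibroblasts, and no other member was called in any class. It measured 502, 429 and 368 in the young TN, 3D and 14D libraries and 494, 385 and 286 in the aged TN, 3D and 14D libraries. In both ages the order was TN, then 3D, then 14D, with the lowest value in the aged 14D library, the shallowest over all cells. In Dpp4+ fibroblasts the median UMIs per cell of that library were 6739, beside 7035 in the aged 3D and 7254 in the aged TN library. The log2 fold change over TN was -0.29 (SE 0.087) at 3D and -0.62 (SE 0.087) at 14D (adjusted p = 0.00726). The call held under 13 of the 14 settings run and was lost when age was left out of the fit (adjusted p = 0.623). Without the aged 14D library the adjusted p was 0.00918. At 2000 UMIs per cell Ier2 was found in 56.8, 52.6 and 45.3% of young and 57.3, 50.1 and 42.1% of aged Dpp4+ fibroblasts.

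The 1 call in Dpp4+ fibroblasts stands beside 929 of 13226 (7.02%) of all genes. In the other classes edgeR called no member, beside 336 of 13104 (2.56%) in Icam1+ preadipocytes, 194 of 11523 (1.68%) in Cd142+ fibroblasts, 192 of 10401 (1.85%) in endothelial cells and 5 of 7621 (0.0656%) in SMC/pericytes. At an unadjusted p under 0.05 these held 1, 1, 1 and 3 members, a count without the share of all genes at that level beside it. DESeq2 called 1 in Icam1+ preadipocytes, Egr1, and 0 in the other 3 classes. Fos and Egr1 in Dpp4+ fibroblasts came next. Fos gave -0.19 (SE 0.11) at 3D and -0.48 (SE 0.11) at 14D (adjusted p = 0.0663) and Egr1 gave -0.20 (SE 0.11) at 3D and -0.47 (SE 0.11) at 14D (adjusted p = 0.0615), values that miss the threshold, and DESeq2 called both. With each library left out in turn, the 14D change in Dpp4+ fibroblasts ran over -0.68 to -0.26 for Fos and -0.65 to -0.27 for Egr1. The values of Egr1 were 3684, 3607 and 3098 (young) and 4459, 3467 and 2787 (aged) in Dpp4+ fibroblasts and 4834, 4306 and 4096 (young) and 6495, 4672 and 3809 (aged) in Icam1+ preadipocytes. In both classes and both ages the 14D library was the lowest of the 3.

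In endothelial cells Ier2 gave 0.29 (SE 0.11) at 3D and -0.085 (SE 0.11) at 14D (adjusted p = 0.262), and Fos 0.10 (SE 0.10) at 3D and 0.062 (SE 0.10) at 14D (adjusted p = 0.882). Egr1 there gave -0.10 (SE 0.095) at 3D and -0.19 (SE 0.095) at 14D (adjusted p = 0.652), negative at both times. The test of whether the temperature effect differs among classes called no member (smallest adjusted p 0.482, Ier2), beside 10 of 14105 (0.0709%) of all genes. At an unadjusted p under 0.05 it held 1 member, and the share of all genes there is not given. The members' median at 14D over TN was -0.20, -0.18 and -0.10 in the 3 fibroblast classes, -0.041 in endothelial cells and -0.39 in SMC/pericytes, where the medians over all genes lay between -0.008 and 0.0031. The SMC/pericyte value rests on cells whose number depended on the cell filter.

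**Figure D4:**
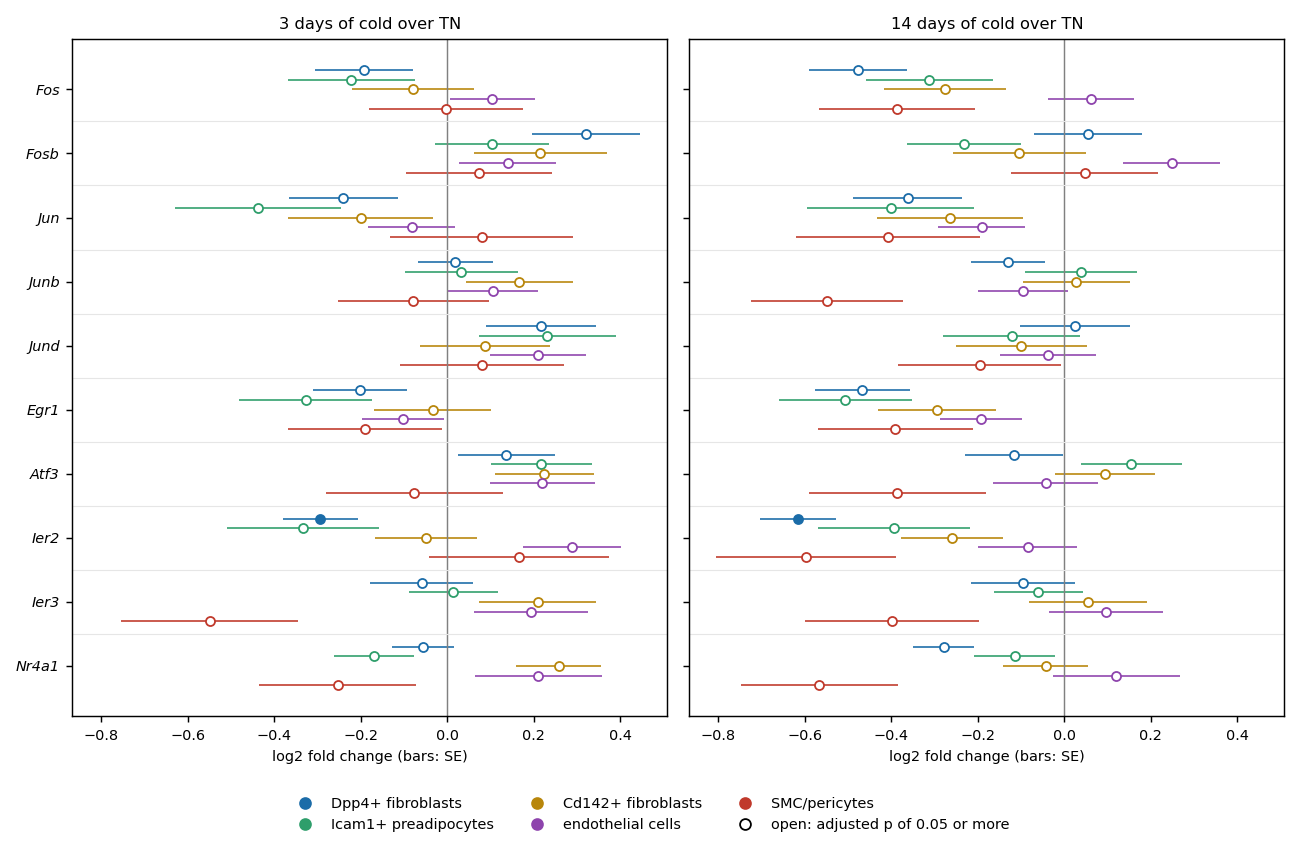
Log2 fold change over TN (x axes) after 3 days (left) and 14 days (right) of cold, with its SE, for each gene (y axis) and cell class (colour). Filled points pass an adjusted p of 0.05 for temperature: only Ier2 in Dpp4+ fibroblasts does in this fit, and most points at 14 days lie left of 0.

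Within the fibroblast classes several members shared an order of the libraries. Of the 30 pairs of a member and a fibroblast class, the aged TN library was the highest of the 6 in 15 and the aged 14D library the lowest in 17, while the latter was highest in 0. Over all 50 pairs the aged TN and the aged 3D library were highest in 20 each and the aged 14D library lowest in 22. How often each library is highest or lowest among all genes is not given. These counts are therefore not shown to be particular to the members. The genes with the most such pairs, Fos, Jun, Egr1 and Ier2, were highest in the aged TN and lowest in the aged 14D library in 11 of their 12 fibroblast pairs. The aged 3D library was highest for 5 of 10 members in endothelial cells and for 6 of 10 in SMC/pericytes. With 1 library for each age and temperature, the temperature, the preparation and the depth of a library cannot be told apart. The part of digestion in these values was not tested.

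**Figure D5:**
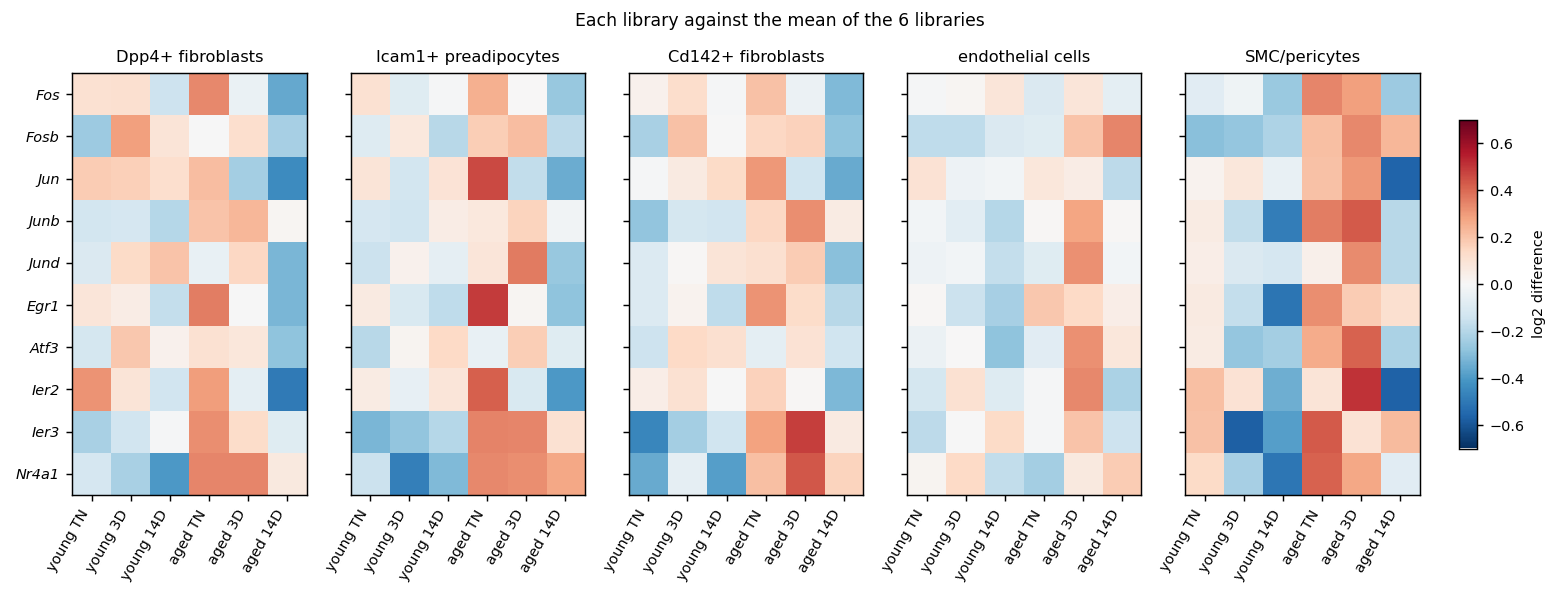
Log2 difference of each library (columns) from the mean of the 6 libraries, for each gene (rows) in each cell class (panels), with red above and blue below the mean. The aged 14D column is blue for most genes of the 3 fibroblast classes, where it is lowest in 17 of 30 rows, and the Nr4a1 row is blue for young and red for aged libraries there.

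Heat shock chaperones, another group that responds to handling and stress, were summed over 14 genes in CPM without TMM factors. The sums were 7320 to 8274 in young and 7274 to 8716 in aged libraries in Dpp4+ fibroblasts. In Icam1+ preadipocytes they were 8829 to 10342 in young and 10586 to 10970 in aged libraries. In Cd142+ fibroblasts they were 8109 to 9541 in young and 8995 to 9825 in aged libraries, and overlapped as in Dpp4+ fibroblasts. With age 2 rose and 1 fell of 14 tested in Dpp4+, 4 rose and 0 fell of 14 in Icam1+ and 3 rose and 2 fell of 14 in Cd142+ cells. These counts stand beside 16.8, 9.82 and 9.61% of all genes called with age in either direction. Hsp90aa1, a cytosolic chaperone, rose in all 3, by 0.23 (adjusted p = 0.0498), 0.36 (0.0278) and 0.33 (0.0339) on the log2 scale. Dnajb1, a co-chaperone, fell in the Dpp4+ and Cd142+ classes.

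Relatives of the members changed with age in the same classes, where 16.8, 9.82 and 9.61% of all genes were called in either direction. Of 16 other immediate early transcription factors, 4 rose and 1 fell of 16 in Dpp4+ fibroblasts, 3 rose and 1 fell of 16 in Icam1+ preadipocytes and 5 rose and 0 fell of 16 in Cd142+ fibroblasts. Nr4a3, a paralogue of Nr4a1, rose in all 3. In Dpp4+ fibroblasts it measured 151, 139 and 129 in young and 229, 225 and 224 in aged libraries. The ages did not overlap. The log2 changes were 0.70 (SE 0.060, adjusted p = 3.15e-05) in Dpp4+, 0.80 (0.0106) in Icam1+ and 0.58 (0.0205) in Cd142+ cells. Nr4a2, the remaining receptor of this family, rose in the Dpp4+ and Cd142+ classes. The list's median log2 change with age was 0.12, 0.32 and 0.20 in the 3 classes, 0.22 in endothelial cells and 0.43 in SMC/pericytes.

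Among 12 other AP-1 subunits, 4 rose and 1 fell of 11 tested with age in Dpp4+, 2 rose and 0 fell of 11 in Icam1+ and 3 rose and 1 fell of 11 in Cd142+ cells. Of all genes, 16.8, 9.82 and 9.61% were called with age in these classes. Maff, a small Maf protein without a transactivation domain, rose in all 3, by 0.32, 0.40 and 0.41 on the log2 scale (adjusted p = 0.02, 0.0322 and 0.0242). The medians of the list were 0.15, 0.21 and 0.27. Mafk, a relative of Maff, was called with temperature in the same classes. Mafk gave 0.42, 0.42 and 0.57 at 3D and 0.16, 0.015 and 0.21 at 14D (adjusted p = 0.0151, 0.0404 and 0.0394), with its high point at 3 days of cold.

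The counts with age of the lists upstream and downstream of AP-1 stand beside 16.8, 9.82 and 9.61% of all genes called in the Dpp4+, Icam1+ and Cd142+ classes, and whether they differ between classes was not tested. The kinases and factors that switch these genes on held 2 that rose and 1 that fell among 15 tested in Dpp4+ fibroblasts, and none of 15 passed in the Icam1+ or the Cd142+ class. Feedback regulators, such as the phosphatases of the Dusp family that end MAP kinase signals, held 2 that rose and 1 that fell among 16 in Dpp4+ fibroblasts and no call with age in the other classes. Of 15 secreted and matrix genes with AP-1 or SRF sites, 7 rose and 3 fell of 15 in Dpp4+, 1 rose and 0 fell of 14 tested in Icam1+ and 5 rose and 2 fell of 14 tested in Cd142+ cells. Those that rose in Dpp4+ fibroblasts were Ptgs2, Thbs1, Cxcl2, Plaur, Mmp3, Ccl2 and Vegfa, and those that fell included Ctgf and Hbegf. Ctgf also fell in Cd142+ fibroblasts but was the 1 gene of this list that rose in Icam1+ preadipocytes. Of the integrated stress response, 3 rose and 0 fell of 10, 2 rose and 0 fell of 10 and 1 rose and 0 fell of 10 tested in the same order. Sqstm1, a cargo receptor of autophagy, rose in all 3, by 0.51, 0.41 and 0.58 on the log2 scale (adjusted p = 0.000165, 0.0239 and 0.0016). Of these lists and the heat shock genes, no gene was called with age in SMC/pericytes and only Il6, an inflammatory cytokine, in endothelial cells.

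Genes typical of other cell types also differed between the ages in some classes. Whether their RNA came from such cells was not tested. The sums are in CPM without TMM factors. The 8 adipocyte genes summed to 5.94 to 9.42 in young and 10.2 to 24.7 in aged libraries in Dpp4+ fibroblasts. In Icam1+ preadipocytes the sums overlapped, at 39.1 to 74.7 in young and 27.9 to 120.2 in aged libraries. In Cd142+ fibroblasts they were 6.6 to 13.3 in young and 14.6 to 55.9 in aged libraries. Of the genes tested, 4 of 5, 3 of 6 and 3 of 4 rose in the Dpp4+, Icam1+ and Cd142+ classes. Among these was Cidec, a lipid droplet protein, called in all 3 classes with at most 2.2 CPM. Genes so scarce may pass the filter on low counts through the libraries where they are high. Of all genes, 16.8, 9.82 and 9.61% were called with age in these classes in either direction. The counts below stand beside the same shares. The 10 macrophage genes summed to 12.5 to 22.9 in young and 22.5 to 24.8 in aged libraries in Dpp4+ fibroblasts, 13.3 to 21 in young and 22.5 to 39.3 in aged libraries in Icam1+ preadipocytes and 21.6 to 27.2 in young and 24.6 to 55 in aged libraries in Cd142+ fibroblasts, with 0, 2 and 0 called higher. The 6 red blood cell genes ranged over 3.99 to 159.5 in young and 124 to 290.0 in aged libraries in Dpp4+ fibroblasts, where 4 rose. They ranged over 1.76 to 473 in young and 10.6 to 340.4 in aged libraries in Icam1+ preadipocytes and over 140.5 to 545 in young and 6.96 to 297 in aged libraries in Cd142+ fibroblasts, with none called in either class. All 10 macrophage genes and all 8 adipocyte genes had at least 1 UMI in Dpp4+ fibroblasts and Icam1+ preadipocytes. 1 adipocyte gene had none in Cd142+ fibroblasts. Of the red blood cell genes, 1 had none in Dpp4+ fibroblasts and 1 had none in Cd142+ fibroblasts. In endothelial cells the adipocyte sums were 436 to 1235 in young and 983 to 2224 in aged libraries. The red blood cell sums there were 80.2 to 3734 in young and 845 to 2089 in aged libraries. In SMC/pericytes the macrophage sums were 13.5 to 22.3 in young and 46.4 to 98.9 in aged libraries, with 1 gene tested and 0 called. Except for these macrophage sums, the ages overlapped in both classes. Whether such RNA has a part in the members' values was not tested. The median mitochondrial share of UMIs was 1.87, 2.62 and 2.44% in young and 2.49, 2.90 and 2.78% in aged libraries (TN, 3D, 14D), higher in the aged library at each temperature and in the cold libraries than at TN within each age. Its part in the members' values was not tested.

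Among the genes whose course over the 6 libraries was most like that of the members' mean were, by Pearson correlation averaged over the 5 classes (7260 genes tested in all), Plekhg2 (0.79), Fbxl18 (0.78), Ppp1r15a (0.76), Phf1 (0.76), Sertad1 (0.75), Brd2 (0.75), Srsf5 (0.74), Rab11fip2 (0.74) and Mafa (0.74). Ppp1r15a encodes a stress-induced phosphatase subunit, and Srsf5 is an RNA-binding protein. With 6 libraries that share their preparation across classes, these values only describe the libraries.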

How the data were processed

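Single-cell RNA was measured with 10x 3′ chemistry (v3.1), and the deposited matrices hold the UMI counts that the authors obtained per gene and barcode with Cell Ranger 3.1.0 on mm10, not normalised. Cells with more than 200 genes and within 3 median absolute deviations of their library in UMIs and genes, and not above that in mitochondrial share, were kept and gated by 10 markers per class. Fibroblasts went to the class that led the next by 0.25 in mean marker z-score. No doublet caller was run. A cell with 3 or more markers of a non-fibroblast lineage other than its own was not gated. Endothelial cells and SMC/pericytes had to lack Pdgfra, but their other fibroblast markers were not limited, so doublets with fibroblasts may remain. UMIs were summed per library and class and tested with edgeR 4.0.16 (TMM, filterByExpr, quasi-likelihood F test with Benjamini-Hochberg adjustment at 0.05) on age and temperature together, which leaves 2 residual degrees of freedom. Differences among classes were tested on the 30 sums with the library as a block. On simulated data with 200 genes changed by 1 on the log2 scale, 86, 78, 85, 72.5 and 54.5% were recovered in the Dpp4+, Icam1+, Cd142+, endothelial and SMC/pericyte fits. In the same order, 3, 7, 7, 2 and 6 unchanged genes were called. The simulation held no temperature effect. The members' changes with age were smaller than 1, so these shares do not give the recovery of such changes.

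All 10 members are named. Of the other lists, genes called in 3 or more classes in the same direction with age, or with temperature, are named, and those of the 10 most like the members' mean, except items that are not reported here. Nr4a2, Dnajb1, Il6 and the secreted genes named with Dpp4+ fibroblasts were added after their values were seen. The members and lists were chosen with earlier results of these data known. The alternatives were RLE factors, no filter on low counts, 1 term alone, cells thinned to 2000 UMIs, fixed cell limits, a gate margin of 0.5, DESeq2 1.42.0 and each library left out.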

Additional observations from a re-analysis of the deposited data

Results flagged for a closer look

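In 4 of 50 pairs of a gene and a class, both cold libraries of one age lay above their own TN library and both of the other age below it. The difference between the ages was not tested, since each value rests on 2 libraries. How many of all genes show such an order is not given, so the count has no background beside it. The values of an age share its TN library, and the aged 14D library is the shallow one over all cells. Its median UMIs per cell were 6739 in Dpp4+, 4769 in Icam1+ and 2474 in Cd142+ cells. The aged 3D library had 7035, 7314 and 6093 in the same order. All 4 had young libraries up and aged libraries down on the log2 scale over TN. Atf3 in Dpp4+ fibroblasts gave 0.31 and 0.16 in young and -0.029 and -0.39 in aged libraries at 3D and 14D. Ier3 in the same cells gave 0.091 and 0.21 against -0.20 and -0.41. Ier3 in Icam1+ preadipocytes gave 0.040 and 0.12 against -0.010 and -0.24. Jun in Cd142+ fibroblasts gave 0.075 and 0.14 against -0.44 and -0.66.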

How the results depend on the processing

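With 1 library per age and temperature each value rests on 6 libraries, and SMC/pericytes on as few as 104 cells. Leaving out 1 library leaves 1 sample in an arm, taken to vary like the others. For age, the other library of that temperature is then fitted by its own term. The 2 leave-outs of a temperature thus rest on the same pairs and are not separate checks. With age, the members called went from 2 to 5 in Dpp4+ fibroblasts and from 0 to 1 in endothelial cells and 1 in SMC/pericytes without the filter on low counts, and to 1 in Dpp4+ and 1 in Cd142+ fibroblasts with temperature left out. With each library left out they ran over 1 to 3 in Dpp4+, 1 to 2 in Icam1+ and 0 to 4 in Cd142+ cells, with the lows in each class without the young 3D or the aged 3D library and the 4 without the aged TN library. With temperature, the 1 call in Dpp4+ fibroblasts became 6 without the filter, 0 with age left out, 3 with thinned cells, 2 with fixed cell limits and 3 with DESeq2. The 0 became 1 without the filter and 1 with DESeq2 in Icam1+ preadipocytes, and 1 without the filter and 1 with fixed limits in SMC/pericytes. With each library left out the counts ran over 1 to 6 in Dpp4+, 0 to 1 in Icam1+, 0 to 1 in Cd142+ cells, 0 to 1 in endothelial cells and 0 to 2 in SMC/pericytes. The highs came without the young 14D library, the young TN library (Icam1+ and Cd142+) or the aged TN library (Cd142+). The cause was not tested. The share of all genes called under each of these settings is not given, so the counts, with age or temperature, describe the settings only. No member's effect differed among classes under any setting run.

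Age changes that turned sign were all of pairs of a member and a class not called with age in the main fit. They were Fos in Icam1+ preadipocytes (0.0014 with temperature left out), Jund in Cd142+ fibroblasts (0.0025 with RLE, 0.012 with temperature left out, 0.032 with fixed limits, 0.0025 with DESeq2), Fosb in Cd142+ fibroblasts (-0.00034 at a margin of 0.5), Nr4a1 in endothelial cells (-0.0017 without the filter, -0.0039 with fixed limits), Jun in SMC/pericytes (0.0098 with temperature left out, 0.0097 thinned) and, with fixed limits there, Jund (-0.064), Atf3 (-0.085) and Ier2 (-0.081). With each library left out, 23 of 50 age changes turned sign at least once. In Dpp4+ fibroblasts these were Egr1 (-0.11 to 0.11), Fos (-0.18 to 0.040), Fosb (-0.25 to 0.043), Jund (-0.26 to 0.029), Atf3 (-0.21 to 0.063). In Icam1+ preadipocytes these were Egr1 (-0.0067 to 0.27), Atf3 (-0.049 to 0.14), Fos (-0.098 to 0.11), Jun (-0.26 to 0.16), Ier2 (-0.28 to 0.15). In Cd142+ fibroblasts these were Fosb (-0.16 to 0.16), Fos (-0.23 to 0.0055), Jun (-0.35 to 0.054), Jund (-0.11 to 0.19), Atf3 (-0.15 to 0.017), Ier2 (-0.21 to 0.0066). In endothelial cells these were Ier3 (-0.062 to 0.19), Ier2 (-0.018 to 0.17), Jun (-0.11 to 0.033), Nr4a1 (-0.17 to 0.14). In SMC/pericytes these were Jund (-0.044 to 0.21), Ier2 (-0.18 to 0.13), Jun (-0.17 to 0.20). Of the 50 cold changes, 24 at 3D and 21 at 14D turned sign when 1 library was left out, and 2 and 1 under the other settings. No pairing by replicate was possible because each group has 1 library, so the groups share fewer than 2 replicate numbers. The main fit did compare the ages at matched temperatures.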
